A study of Mus musculus with 6 samples.

Results

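The TNF superfamily ligands and their receptors were examined in C1498 cells with and without inhibition of PARP-1. The rule for members used gene symbols and no measured value, but the family was proposed with earlier results of these data known. Members were the genes named Tnfsf or Tnfrsf with a number, together with Tnf, Lta, Ltb, Ltbr, Fas, Fasl, Cd27, Cd70, Cd40, Cd40lg and Ngfr, where a probe set was assigned to that gene only. This gave 40 members of 19938 genes measured in this way, of which 15 were ligands and 25 were receptors, and each had 1 probe set. Tnfsf12 and Tnfsf13 share a probe set assigned to several genes and were left out.

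C1498 is a mouse line of C57BL/6J background that is labelled as acute myeloid leukemia (AML). PJ34 inhibits the enzyme PARP-1 and is a small molecule. The 3 arrays of the PJ34 group came from cells given 20 μM PJ34 for 48 h, and the 3 arrays of the PBS group from cells given PBS for 48 h in the same medium. All cells were of 1 line in culture, and the arrays are described as independent experiments without further detail, so that the p-values below measure the spread between these arrays. Each array gave 1 log2 expression value per probe set, and all differences below are PJ34 minus PBS on that scale.

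TNF superfamily ligands are mostly membrane proteins that assemble as trimers and can be shed by proteases. Their receptors signal through TRAF adaptors to NF-kB and MAP kinases, or, where they carry a death domain, to caspase-8, while decoy receptors bind ligand without a full signal. In blood cells the family is known for inflammation (Tnf, lymphotoxins), for apoptosis (Fas and TRAIL receptors) and for costimulation of lymphocytes (Cd27, Cd40, 4-1BB, OX40).

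The deposited values hold no detection calls, so a level was set from genes that blood cells are not known to use. The 95th percentile of the means of 1210 olfactory and vomeronasal receptor probe sets was 3.78. Of the 40 members, 31 had a mean above this level and 9 did not, among them Fas, Fasl and Tnfsf10, which encodes TRAIL. Such a level describes probe sets and does not rank genes. The label was also set against lineage markers. Of 12 genes listed as myeloid markers 4 were above the level, with means of 10.64 for Ptprc, 4.86 for Cebpa, 3.99 for Itgam and 3.81 for Mpo. Spi1, Csf1r, Csf3r, Cd33, Cd14, Lyz2, Elane and Ctsg were not. Ptprc encodes CD45, which is not specific to myeloid cells. Of 11 T and NK markers 9 were above the same level, and Klrb1c and Ncr1 were not. The means were 11.08 for Cd3g, 10.47 for Cd3e, 7.30 for Zap70 and 4.76 for Cd3d. Those of Cd247, Cd4, Cd2, Cd5 and Cd8a lay above the level but below 4.42, the median over all probe sets. Of 7 B cell markers 2 were above the level. The label of a myeloid line is therefore not borne out by most of the defining myeloid markers on these arrays, and the cells are called C1498 here. The mean of the T and NK markers ran from 5.31 to 5.36 on the PBS arrays and from 5.38 to 5.45 on the PJ34 arrays, and 7 of the 11 had a positive difference and 4 a negative one. Among them Cd4 rose by 0.62 (SE 0.062, adjusted p = 0.00241 from limma), while Zap70 had a difference of -0.26 (adjusted p = 0.0638), with all its PJ34 values below its PBS values. Without Cd4, which was left out after its value was seen, the mean of the other 10 ran from 5.46 to 5.51 and from 5.48 to 5.55, so that the groups overlapped. The mean of the myeloid markers, with Ptprc among them, ran from 4.04 to 4.14 and from 4.04 to 4.15. That of the B cell markers ran from 3.15 to 3.25 and from 3.17 to 3.29. The part of these markers in the results below was not tested, and in RNA of whole cultures a change in the number of cells of a type and a change of RNA per cell cannot be told apart.

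Of the 40 members, 3 rose with PJ34 and 0 fell at an adjusted p under 0.05 from limma, against 1.72% of all 23412 probe sets tested that rose and 1.35% that fell (3.07% in either direction). The 3 were the receptor gene Tnfrsf26, the ligand gene Tnfsf14 and the receptor gene Tnfrsf19, and they make up 7.5% of the members. All 3 were above the level of olfactory and vomeronasal receptor genes, and of all probe sets above that level 2.45% rose. At an unadjusted p under 0.05 there were 11 members higher and 0 lower, beside 8.95% and 7.74% of all probe sets. The PJ34 values lay wholly above the PBS values in 12 members and wholly below in 1, beside 12.6% and 10.9% of all probe sets. The median log2 fold change was 0.06 over the members and 0.0029 over all probe sets tested, and 26 members had a positive value and 14 a negative one. The members ran from -0.12 to 0.82, so that none changed by over 2-fold. With 3 arrays against 3, an exact two-sided permutation test of a single gene cannot give a p below 0.1, and limma's test across all probe sets was the one used for calls.

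**Figure D1:**
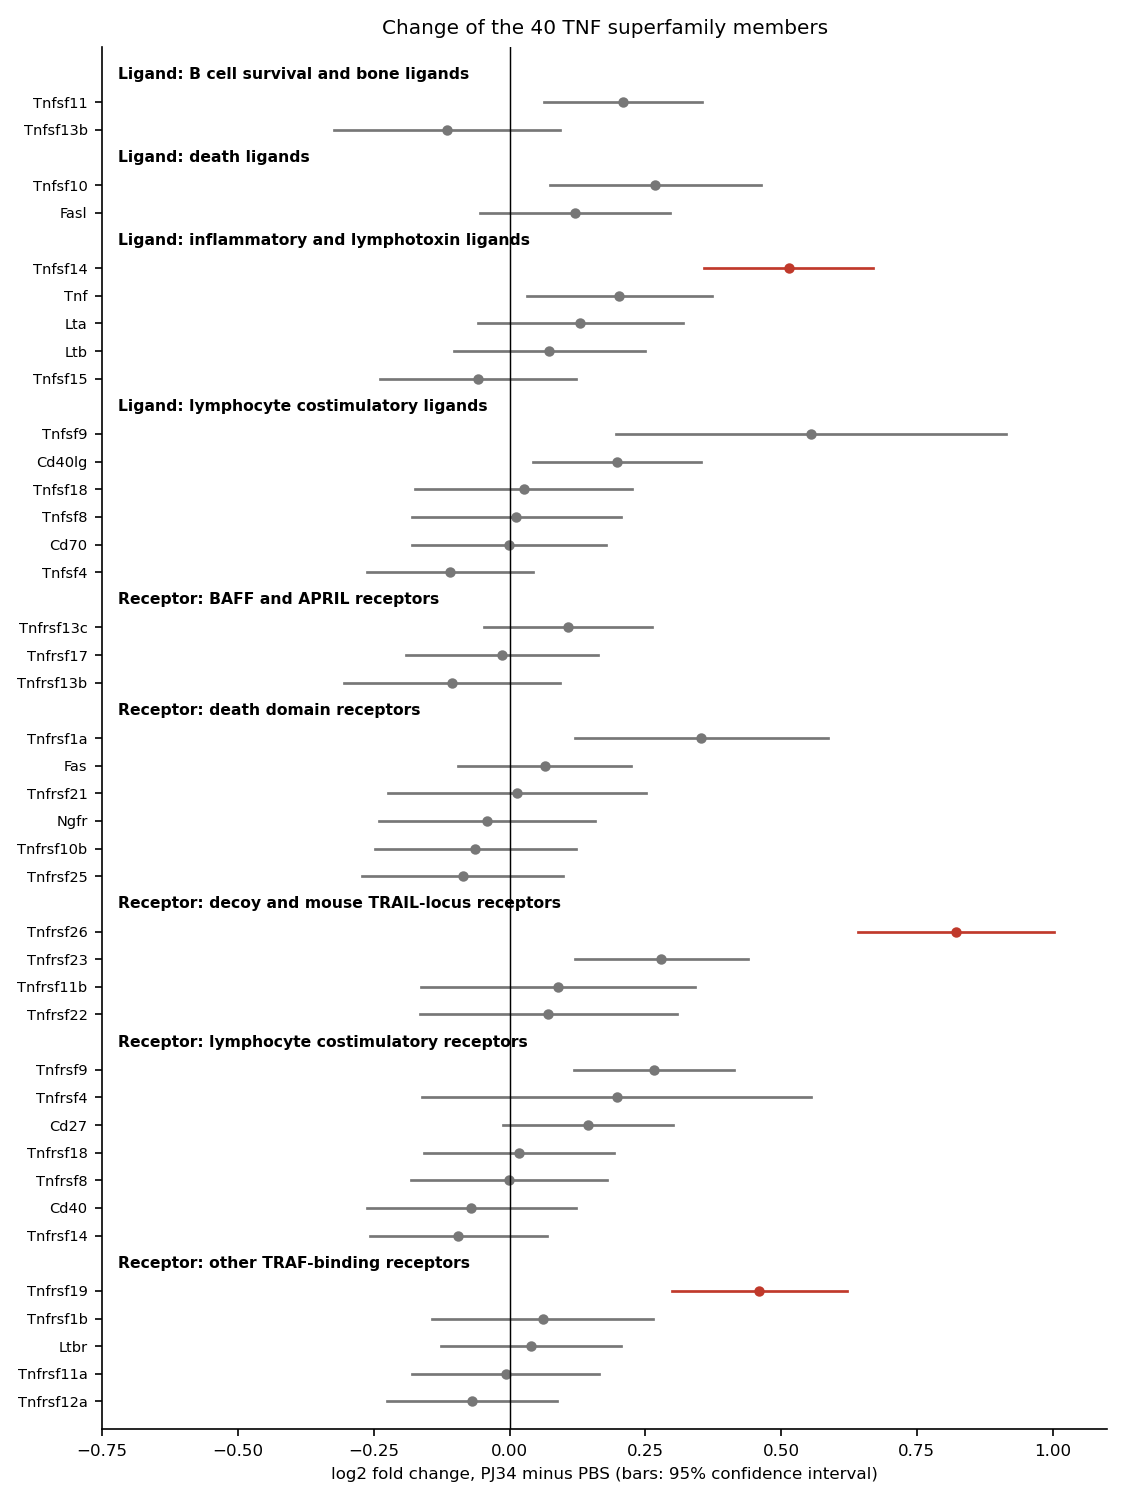
The 40 members with their log2 fold changes on the horizontal axis (PJ34 minus PBS), grouped by role and ordered by size within each role. Points are the estimates, bars are 95% confidence intervals from limma, and red marks the 3 members that passed at an adjusted p under 0.05. Tnfrsf26, at 0.82, stands furthest from 0, and no member that passed lies below 0.

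Among the 15 ligands, Tnfsf14 rose and the other 14 did not pass. The ligands had a median log2 fold change of 0.12 and ran from -0.12 to 0.55, with 11 positive and 4 negative values. In 6 of them the PJ34 values lay wholly above the PBS values, and in 1, Tnfsf4, wholly below, beside 12.6% and 10.9% of all probe sets. Of the 15, 9 were above the level of olfactory and vomeronasal receptor genes.

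Tnfsf14 encodes LIGHT, a ligand of activated lymphocytes that binds the herpesvirus entry mediator (Tnfrsf14) and the lymphotoxin beta receptor (Ltbr). Its probe set, 10452307, gave 5.03, 5.02 and 4.98 on the PBS arrays and 5.60, 5.55 and 5.42 on the PJ34 arrays. All 3 PJ34 values were above all 3 PBS values, and the PBS arrays lay close together. The group means were 5.01 ± 0.026 and 5.52 ± 0.089 (SD, n = 3 each). The log2 fold change was 0.51 (SE 0.068, 95% confidence interval 0.36 to 0.67), a ratio of 1.43 (1.28 to 1.59), at an adjusted p of 0.00779 (limma). Tnfsf14 also passed when any 1 of the 6 arrays was left out. Its 2 receptors did not pass, with log2 fold changes of -0.09 for Tnfrsf14 and 0.04 for Ltbr.

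Since Tnfsf14 was the ligand that rose, the 250 bases before its start are shown, from RefSeq on GRCm38.p6 (chr17:57194182-57194431, minus strand), 5′ to 3′. Capitals mark matches to 2 of the 5 motifs searched on both strands, and the positions given count from the start.
Tnfsf14: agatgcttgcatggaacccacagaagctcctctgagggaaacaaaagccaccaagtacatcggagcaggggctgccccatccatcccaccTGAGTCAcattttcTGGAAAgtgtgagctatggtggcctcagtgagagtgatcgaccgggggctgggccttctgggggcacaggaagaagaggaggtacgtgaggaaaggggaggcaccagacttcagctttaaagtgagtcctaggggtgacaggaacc
The AP-1 motif (TGANTCA) matched as TGAGTCA at -160, and the NFAT motif (TGGAAA) at -146. The search also took in the 50 bases after the start, which are not shown. Of 32851 RefSeq promoters searched over the same window, 7.81% hold the AP-1 motif and 21.4% the NFAT motif. Of the 31 members with a promoter in the table, 5 held the AP-1 motif (Fas, Tnfrsf8, Tnfrsf9, Tnfsf13b and Tnfsf14) and 7 the NFAT motif, among them Tnf. The NF-kB consensus was in 4 (8.46% of all promoters), the EGR motif (GCGNGGGCG) in 2 (5.55%) and the CRE motif (TGACGTCA) in 0 (1.79%). A member was counted if any of its starts matched, while the percentages are of single promoters. Tnfrsf9, Tnfrsf19, Tnfrsf25 and Tnfsf13b have 2 starts each, so the counts are not like for like with the percentages. These matches describe letters in the window and measure no binding.

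Of the remaining inflammatory and lymphotoxin ligands, none passed. Tnf gave 6.46, 6.54 and 6.68 on the PBS arrays and 6.81, 6.74 and 6.75 on the PJ34 arrays. The PJ34 values of this main inflammatory cytokine were all higher, with 0.053 between the nearest arrays of the groups against an SD of 0.114 on the PBS arrays. Its log2 fold change was 0.20 (95% confidence interval 0.03 to 0.37, adjusted p = 0.210 from limma). Lta and Ltb, which form the lymphotoxins and lie beside Tnf on chromosome 17, had log2 fold changes of 0.13 and 0.07, and their groups overlapped. Ltb had the brightest probe set of these ligands, with group means of 8.02 and 8.10. Tnfsf15, the ligand of death receptor 3, had a log2 fold change of -0.06.

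Tnfsf9, which encodes the 4-1BB ligand of antigen-presenting cells, had the largest log2 fold change among the ligands and did not pass. It gave 4.04, 4.60 and 4.52 on the PBS arrays and 4.80, 5.19 and 4.83 on the PJ34 arrays. The groups did not overlap, but PBS replicate 1 lay well below the others of its group, and the SD of the PBS arrays was 0.303 against a median of 0.0970 over the members. The log2 fold change was 0.55 (SE 0.16, 95% confidence interval 0.20 to 0.91), at an adjusted p of 0.110 (limma). Without PBS replicate 1 the log2 fold change was 0.38 (adjusted p = 0.224 from limma).

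Cd40lg, the ligand by which helper T cells activate B cells, had the brightest probe set of the lymphocyte costimulatory ligands. It gave 7.72, 7.56 and 7.65 on the PBS arrays and 7.80, 7.88 and 7.85 on the PJ34 arrays, which did not overlap. The log2 fold change was 0.20 (adjusted p = 0.181 from limma). The other 4 costimulatory ligands (Cd70, Tnfsf4, Tnfsf8 and Tnfsf18) were below the level of olfactory and vomeronasal receptor genes, with log2 fold changes from -0.11 to 0.03. Tnfsf4, the OX40 ligand, was the 1 member whose PJ34 values (2.50, 2.43 and 2.48) all lay below its PBS values (2.52, 2.54 and 2.67), with a gap of 0.025 and an adjusted p of 0.477 from limma.

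The 2 death ligands measured were both at or below that level. Tnfsf10, encoding TRAIL, gave 3.78, 3.58 and 3.55 on the PBS arrays and 3.79, 3.99 and 3.94 on the PJ34 arrays. The groups were 0.013 apart at their nearest arrays, and the log2 fold change was 0.27 (adjusted p = 0.147 from limma). Fasl had a log2 fold change of 0.12 with overlapping groups. Tnfsf11, which encodes RANKL, the ligand that drives osteoclast formation, gave 6.70, 6.68 and 6.80 on the PBS arrays and 6.97, 6.90 and 6.94 on the PJ34 arrays. The groups did not overlap, and the log2 fold change was 0.21 (adjusted p = 0.135 from limma). Tnfsf13b, which encodes the B cell survival factor BAFF, had the lowest log2 fold change of the members, -0.12 (95% confidence interval -0.32 to 0.09, adjusted p = 0.599 from limma). It gave 3.76, 4.01 and 3.84 on the PBS arrays and 3.62, 3.77 and 3.87 on the PJ34 arrays, and the groups overlapped.

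Among the 25 receptors, Tnfrsf26 and Tnfrsf19 rose and the other 23 did not pass. The receptors had a median log2 fold change of 0.04 and ran from -0.11 to 0.82, with 15 positive and 10 negative values. In 6 of them the PJ34 values lay wholly above the PBS values, and in 0 wholly below, beside the same 12.6% and 10.9%. Of the 25, 22 were above the level of olfactory and vomeronasal receptor genes.

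Tnfrsf26 is a mouse receptor gene that lies on chromosome 7 beside Tnfrsf22 and Tnfrsf23, which encode decoy receptors for TRAIL. Its probe set, 10569485, gave 6.74, 6.86 and 6.82 on the PBS arrays and 7.54, 7.77 and 7.58 on the PJ34 arrays. The lowest PJ34 value was 0.68 above the highest PBS value, the widest gap of any member. The group means were 6.81 ± 0.063 and 7.63 ± 0.12 (SD, n = 3 each). The log2 fold change was 0.82 (SE 0.079, 95% confidence interval 0.64 to 1.00), a ratio of 1.77 (1.56 to 2.00), at an adjusted p of 0.00209 (limma). It also passed with any 1 of the 6 arrays left out.

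The 2 neighbours of Tnfrsf26 did not pass. Tnfrsf23 gave 2.55, 2.66 and 2.54 on the PBS arrays and 2.93, 2.78 and 2.88 on the PJ34 arrays, below the level of olfactory and vomeronasal receptor genes. These groups did not overlap, and the log2 fold change was 0.28 (adjusted p = 0.0758 from limma). Tnfrsf22 had a log2 fold change of 0.07 with overlapping groups. The log2 fold change of Tnfrsf26 exceeded that of Tnfrsf22 by 0.75 (SE 0.20) and that of Tnfrsf23 by 0.54 (SE 0.12). Only neighbours of Tnfrsf26 and Tnfsf14, which had both passed, were compared in this way, as 4 pairs. An exact permutation test gave p = 0.1 for each of the differences of Tnfrsf26 (adjusted p = 0.133 over the 4 pairs). That is the lowest p it can give with 3 arrays per group, so it could not decide at 0.05. At so low a signal the value of Tnfrsf23 does not limit a change of its gene. These genes are close paralogs, and the reading of probes across them was not tested. The soluble decoy receptor Tnfrsf11b (osteoprotegerin) had a log2 fold change of 0.09.

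Tnfrsf19, also called TROY, is a receptor of the developing nervous system and hair follicle that binds TRAF proteins. Its probe set, 10420596, gave 7.95, 8.10 and 8.10 on the PBS arrays and 8.50, 8.57 and 8.45 on the PJ34 arrays. All 3 PJ34 values were higher, and PBS replicate 1 was the lowest of the 6. The group means were 8.05 ± 0.087 and 8.51 ± 0.058 (SD, n = 3 each). The log2 fold change was 0.46 (SE 0.071, 95% confidence interval 0.30 to 0.62), a ratio of 1.38 (1.23 to 1.54), at an adjusted p of 0.0134 (limma). It did not pass without PBS replicate 1 (adjusted p = 0.0509 from limma) or without PJ34 replicate 1 (0.0528), with log2 fold changes of 0.41 and 0.46, and it passed in the other 4 such fits.

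RefSeq gives Tnfrsf19 starts at 2 places, and the 250 bases before each are shown because it was the other called member with an entry in the table (GRCm38.p6, minus strand, chr14:61046856-61047105 and chr14:61037988-61038237). None of the 5 motifs matched in either, so that all letters are in lower case.
Tnfrsf19, upstream start: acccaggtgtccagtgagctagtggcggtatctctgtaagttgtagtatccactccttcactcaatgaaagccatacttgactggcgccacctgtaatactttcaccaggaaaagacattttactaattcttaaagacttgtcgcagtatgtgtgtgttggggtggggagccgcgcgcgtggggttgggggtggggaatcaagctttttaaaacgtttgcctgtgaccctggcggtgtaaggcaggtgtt
Tnfrsf19, inner start: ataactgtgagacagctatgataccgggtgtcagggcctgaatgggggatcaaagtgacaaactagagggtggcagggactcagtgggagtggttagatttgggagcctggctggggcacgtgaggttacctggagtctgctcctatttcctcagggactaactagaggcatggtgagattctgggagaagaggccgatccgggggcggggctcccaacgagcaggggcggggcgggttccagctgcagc

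**Figure D2:**
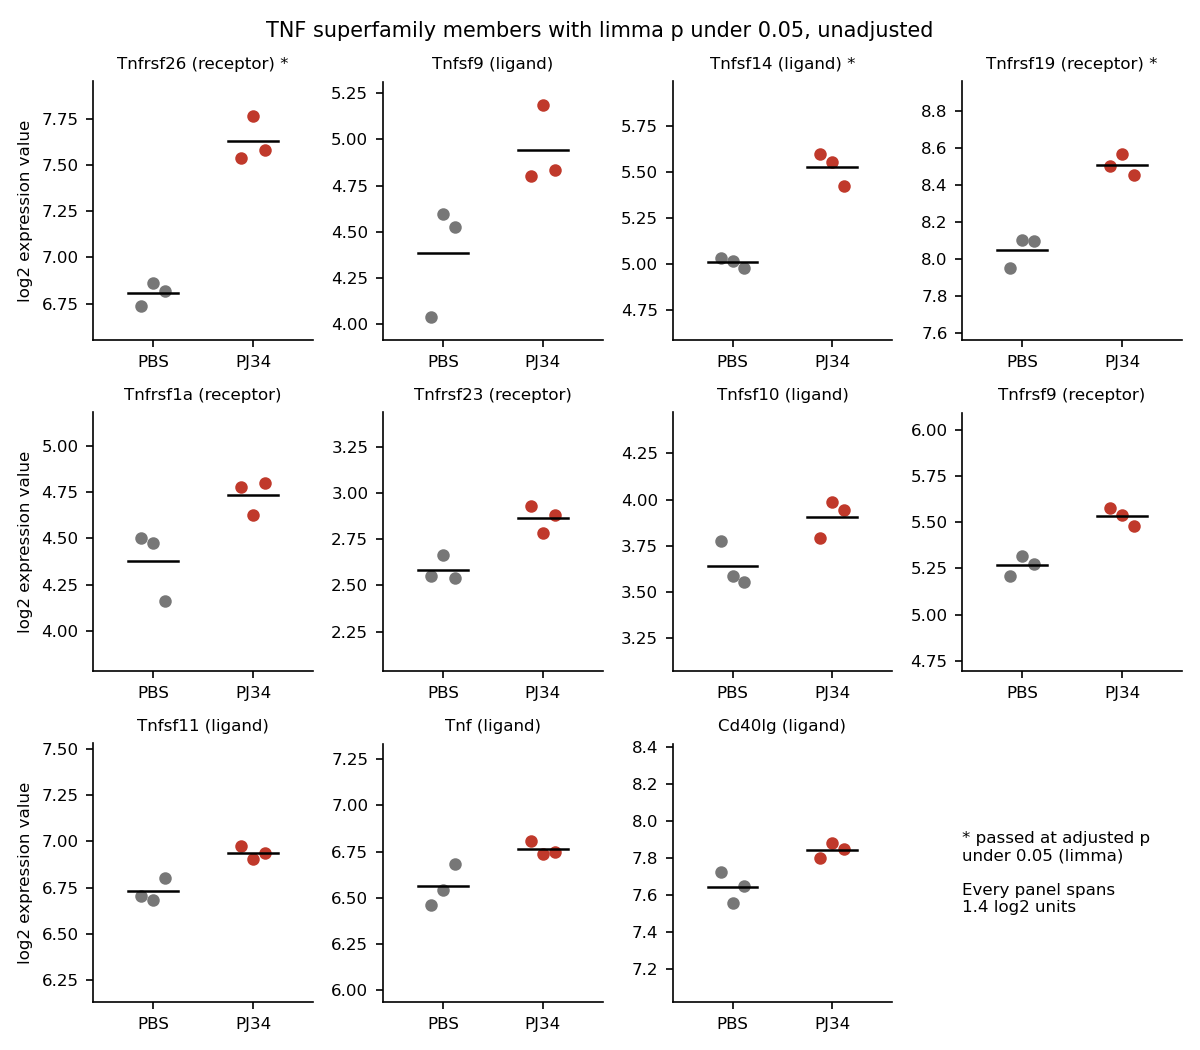
Array values on the log2 scale (vertical axis), with 3 PBS arrays in grey and 3 PJ34 arrays in red, for the 11 members with an unadjusted limma p under 0.05, with lines at the group means and the same span of values in every panel. Asterisks mark Tnfrsf26, Tnfsf14 and Tnfrsf19, which passed after adjustment. The groups are furthest apart for Tnfrsf26, and nearly touch for Tnfsf10.

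Tnfrsf9, the 4-1BB receptor of activated T cells, was among the receptors that did not pass. It gave 5.21, 5.32 and 5.27 on the PBS arrays and 5.58, 5.54 and 5.48 on the PJ34 arrays. The groups did not overlap and were narrow, with a log2 fold change of 0.27 (SE 0.064, 95% confidence interval 0.12 to 0.41, adjusted p = 0.0702 from limma). Its inner start is shown (RefSeq, GRCm38.p6, chr4:150927749-150927998, plus strand) because it holds an AP-1 match like that of Tnfsf14 and an NF-kB match. It was chosen after its motifs were seen. The upstream start of Tnfrsf9, which is not shown, held an NFAT match at -221 and no AP-1 or NF-kB match.
Tnfrsf9, inner start: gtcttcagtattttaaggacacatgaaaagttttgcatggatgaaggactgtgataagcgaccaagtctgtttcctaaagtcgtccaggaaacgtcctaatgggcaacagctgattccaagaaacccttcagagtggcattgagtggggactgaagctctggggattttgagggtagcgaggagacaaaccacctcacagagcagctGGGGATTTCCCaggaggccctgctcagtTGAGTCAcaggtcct
The capitals mark the AP-1 match TGAGTCA at -15 and overlapping NF-kB matches from -43.

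The other lymphocyte costimulatory receptors gave small differences, and 0 of the 7 in the group passed (median log2 fold change 0.02). Cd27, the receptor of Cd70 on T cells and the brightest of the group, gave 10.14, 10.13 and 10.20 on the PBS arrays and 10.28, 10.40 and 10.23 on the PJ34 arrays. The groups were separate by 0.027, and the log2 fold change was 0.14 (95% confidence interval -0.01 to 0.30, adjusted p = 0.343 from limma). Tnfrsf4 (OX40) had a log2 fold change of 0.20 with overlapping groups and an SD of 0.287 on the PBS arrays (adjusted p = 0.604 from limma). Tnfrsf14 had one of the 5 lowest log2 fold changes of the members, -0.09 (adjusted p = 0.582 from limma), with 5.36, 5.26 and 5.34 on the PBS arrays and 5.31, 5.13 and 5.24 on the PJ34 arrays. Those values overlapped between the groups. Cd40, Tnfrsf8 and Tnfrsf18 lay between -0.07 and 0.02.

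None of the 6 death domain receptors passed, and their median log2 fold change was -0.01. Tnfrsf1a, the main receptor of Tnf, gave 4.50, 4.48 and 4.16 on the PBS arrays and 4.78, 4.62 and 4.80 on the PJ34 arrays. The groups did not overlap, with PBS replicate 3 lowest, and the log2 fold change was 0.35 (SE 0.10, adjusted p = 0.115 from limma). Fas lay below the level of olfactory and vomeronasal receptor genes and had a log2 fold change of 0.06 (95% confidence interval -0.09 to 0.22). Tnfrsf10b, the mouse death receptor for TRAIL and the brightest of the group, had group means of 6.81 and 6.74 and a log2 fold change of -0.06 (-0.25 to 0.12). For Tnfrsf10b the interval ended below a 1.5-fold rise, while the signal of Fas was too low for such a limit. Tnfrsf21, Ngfr and Tnfrsf25 had log2 fold changes of 0.01, -0.04 and -0.09. Tnfrsf25 was among the 5 lowest of the members, with 3.99, 4.15 and 4.02 on the PBS arrays and 4.09, 3.84 and 3.97 on the PJ34 arrays, which overlapped (adjusted p = 0.673 from limma).

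The 3 receptors of BAFF and APRIL did not pass, with log2 fold changes of 0.11 for Tnfrsf13c, -0.01 for Tnfrsf17 and -0.11 for Tnfrsf13b. Tnfrsf13b, known as TACI, gave 3.90, 3.83 and 3.89 on the PBS arrays and 3.82, 3.59 and 3.90 on the PJ34 arrays, so that its groups overlapped (adjusted p = 0.615 from limma). Among the receptors that bind TRAF proteins without a death domain, Tnfrsf1b, Ltbr, Tnfrsf11a and Tnfrsf12a lay between -0.07 and 0.06. Of the 37 members that did not pass, 28 were above the level of olfactory and vomeronasal receptor genes, and for 26 of these the 95% confidence interval lay within 1.5-fold in both directions. For Tnfsf9 and Tnfrsf1a the interval took in a rise of that size, and for the 9 members at or below that level the interval does not limit a change of the gene. The SE of the log2 fold change ran from 0.064 to 0.16 over all members, and its median over all probe sets was 0.079.

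**Figure D3:**
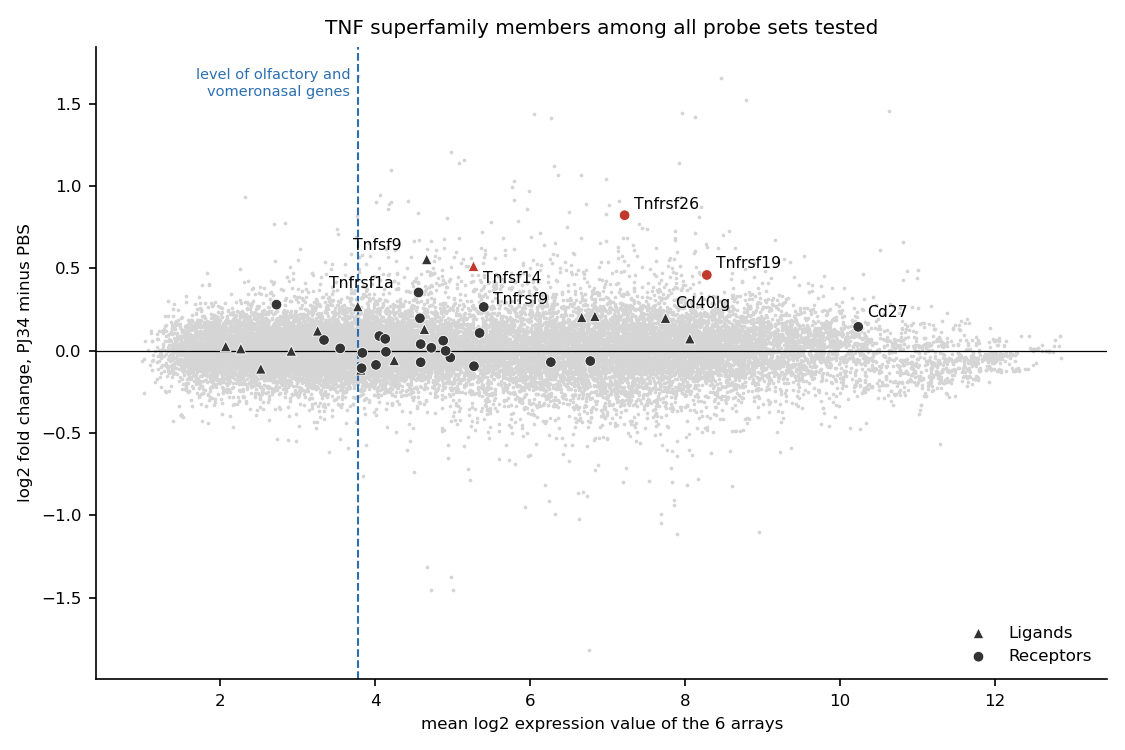
Vertical axis, log2 fold change of PJ34 over PBS, and horizontal axis, mean over the 6 arrays on the log2 scale. Grey points are all probe sets tested, triangles are the 15 ligands, circles are the 25 receptors, red marks the 3 members that passed, and the dashed line is the level of olfactory and vomeronasal receptor genes at 3.78. The 3 red members all lie above the line, and 9 members lie at or below it.

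Ligands were set beside their known receptors. Of 21 ligand and receptor pairs with both genes measured, 15 had both above the level of olfactory and vomeronasal receptor genes, 5 had only the receptor above it and 1 (Fasl with Fas) had neither. In 0 pairs did both genes pass, and in 2 pairs, those of Tnfsf14, 1 gene did. Tnfsf9 and Tnfrsf9 had log2 fold changes of 0.55 and 0.27, and Tnf and Tnfrsf1a of 0.20 and 0.35, in each case with groups that did not overlap and with neither gene past the test. Cd40lg and Cd40 had 0.20 and -0.07, and Tnfsf11 and its receptor Tnfrsf11a (RANK) had 0.21 and -0.01.

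By RefSeq gene order, 21 of the 40 members lay in 8 clusters of neighbours with at most 4 genes between them. Tnfsf14 lies on chromosome 17 beside Cd70 and Tnfsf9. Log2 fold changes were 0.51 for Tnfsf14, 0.55 for Tnfsf9 and -0.00 for Cd70, whose probe set was below the level of olfactory and vomeronasal receptor genes. The log2 fold change of Tnfsf14 minus that of Cd70 was 0.51 (SE 0.081, exact permutation p = 0.1, adjusted p = 0.133). Against Tnfsf9 it was -0.04 (SE 0.22, exact permutation p = 0.8, adjusted p = 0.8). With 3 arrays per group this test cannot give a p below 0.1, so it could not decide at 0.05. In the cluster of Tnfrsf1a, Ltbr and Cd27 on chromosome 6, log2 fold changes were 0.35, 0.04 and 0.14, and none passed.

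The proteins that carry the receptor signal were examined as a list of 33 measured genes, of which 1 rose and 0 fell, beside 1.72% and 1.35% of all probe sets, and the median log2 fold change was 0.04. At an unadjusted p under 0.05 there were 5 higher and 3 lower, beside 8.95% and 7.74%. The gene that rose was Tnfaip3, which encodes A20, a ubiquitin-editing enzyme that restrains NF-kB signals from TNF receptors. It gave 5.75, 5.47 and 5.65 on the PBS arrays and 6.12, 6.06 and 6.06 on the PJ34 arrays. All 3 PJ34 values were higher and lay within a narrow range. Its log2 fold change was 0.46 (SE 0.082, 95% confidence interval 0.27 to 0.64, adjusted p = 0.0233 from limma). Of the 6 fits that left out 1 array it passed only without PBS replicate 1 (adjusted p = 0.0375), and in the others the adjusted p ran from 0.0558 to 0.0884 (limma).

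Of the transducers that did not pass, Birc3 (cIAP2), a ubiquitin ligase of the TNF receptor complex, had a log2 fold change of 0.36 (adjusted p = 0.0789 from limma). Map3k5 (ASK1), Tab3 and Otulin had 0.38, 0.23 and 0.15, with adjusted p from limma of 0.215, 0.116 and 0.295, and Map3k5 had 0.22 without PBS replicate 1. Cflar, the caspase-8 inhibitor c-FLIP, gave 7.76, 7.87 and 7.76 on the PBS arrays and 7.37, 7.63 and 7.38 on the PJ34 arrays. All 3 PJ34 values were lower, with a log2 fold change of -0.34 (adjusted p = 0.0813 from limma). These values are of the brightest of 3 probe sets of Cflar. The next brightest gave -0.08 (adjusted p = 0.654 from limma), and the remaining one was not examined. Rbck1 (HOIL-1) and Ikbkg (NEMO), both of the linear ubiquitin and IKK machinery, had -0.24 and -0.17 (adjusted p = 0.136 and 0.214 from limma). None of the 6 TRAF adaptors measured passed, nor did any of the 6 death domain adaptors and caspase-8 partners. Traf3, Ripk1 and Chuk had no probe set of their own here.

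Of 7 proteases that shed or mature the ligands, 1 rose and 1 fell, beside 1.72% and 1.35% of all probe sets. Adam10, a membrane sheddase, gave 8.72, 8.86 and 8.76 on the PBS arrays and 9.07, 9.23 and 9.09 on the PJ34 arrays, without overlap. The difference was 0.35 on the log2 scale (SE 0.073, limma adjusted p = 0.0414), and it passed in 0 of the 6 fits that left out 1 array (adjusted p from 0.0734 to 0.145, limma). Sppl2a, an intramembrane protease that cleaves the remnants of Tnf and Fasl, gave 8.58, 8.57 and 8.59 on the PBS arrays and 8.24, 8.31 and 8.24 on the PJ34 arrays. Both groups were narrow and did not overlap. The difference was -0.32 on the log2 scale (SE 0.059, limma adjusted p = 0.0289), and of the 6 fits it passed only without PJ34 replicate 2 (adjusted p = 0.0374), with 0.0943 to 0.120 in the others (limma). Adam17, the TNF-converting enzyme, had a log2 fold change of -0.02 (95% confidence interval -0.18 to 0.14).

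Of 9 RNA-binding proteins that act on TNF family mRNAs, 3 rose and 0 fell, beside 1.72% and 1.35% of all probe sets, and the median log2 fold change was 0.15. Zfp36, or tristetraprolin, which promotes decay of Tnf mRNA, gave 5.73, 5.93 and 5.81 on the PBS arrays and 6.71, 7.08 and 6.88 on the PJ34 arrays. The groups lay far apart, and the difference was 1.07 on the log2 scale (SE 0.10, adjusted p = 0.00188 from limma), which passed with any 1 of the 6 arrays left out. The study lists it among the genes it chose on these arrays, so its direction is not independent evidence. Its relative Zfp36l2 gave 7.57, 7.62 and 7.65 on the PBS arrays and 7.93, 8.05 and 7.96 on the PJ34 arrays. Those groups did not overlap and differed by 0.37 on the log2 scale on average (SE 0.065, limma adjusted p = 0.0227). Rc3h1, which encodes Roquin-1, a protein that destabilises mRNAs such as those of Tnf and Tnfrsf4, gave 8.66, 8.69 and 8.65 on the PBS arrays and 9.00, 9.05 and 8.96 on the PJ34 arrays. All its PJ34 values were higher, by 0.34 on the log2 scale on average (SE 0.060, limma adjusted p = 0.0233), and the next brightest probe set of the gene gave 0.27 (adjusted p = 0.218). Of the 6 fits that left out 1 array, Zfp36l2 and Rc3h1 each passed only without PJ34 replicate 2 (adjusted p = 0.0460 and 0.0470, limma), and otherwise ran from 0.0592 to 0.0949 and from 0.0634 to 0.108. Zfp36l1 (0.39, adjusted p = 0.0776 from limma) and Elavl1, the stabilising protein HuR (0.15, adjusted p = 0.266), did not pass. Superfamily genes whose symbols fall outside the rule (Eda, Edar, Eda2r and Relt) had log2 fold changes from -0.00 to 0.10, and 0 of the 4 passed.

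**Figure D4:**
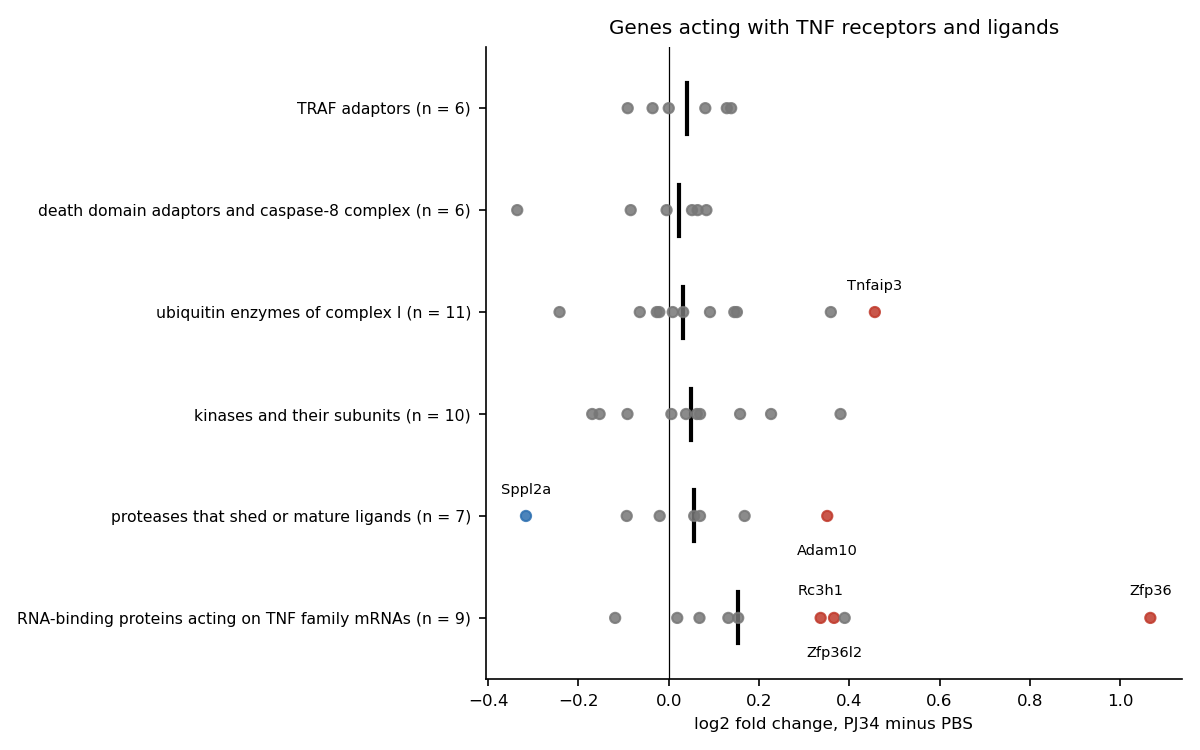
Genes that act with the TNF superfamily, by log2 fold change of PJ34 over PBS on the horizontal axis, with 1 point per gene and 1 line per role, the number of genes in brackets. Genes past limma's test at 0.05 after adjustment are red where higher and blue where lower, the remaining genes are grey, and each role has its median as a black bar. Zfp36, at 1.07, stands furthest from 0, and Sppl2a is the gene that fell.

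The calls of members were compared across 13 other fits of the same values. Tnfrsf26 and Tnfsf14 passed in 12 of the 13, with adjusted p of 0.0581 and 0.0645 under the two-group test of the study's methods as the exception, and Tnfrsf19 passed in 9. Tnfsf9 passed in limma with the robust, intensity-dependent eBayes (adjusted p = 0.0255) and when probe sets below the median level were left out (0.0443). Tnfrsf9 passed under both filters on dim probe sets (0.0303 and 0.0183, limma), and Tnfrsf1a and Tnfsf11 under the one at the median level (0.0434 and 0.0415). No member passed in the other direction in any of these fits.

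**Figure D5:**
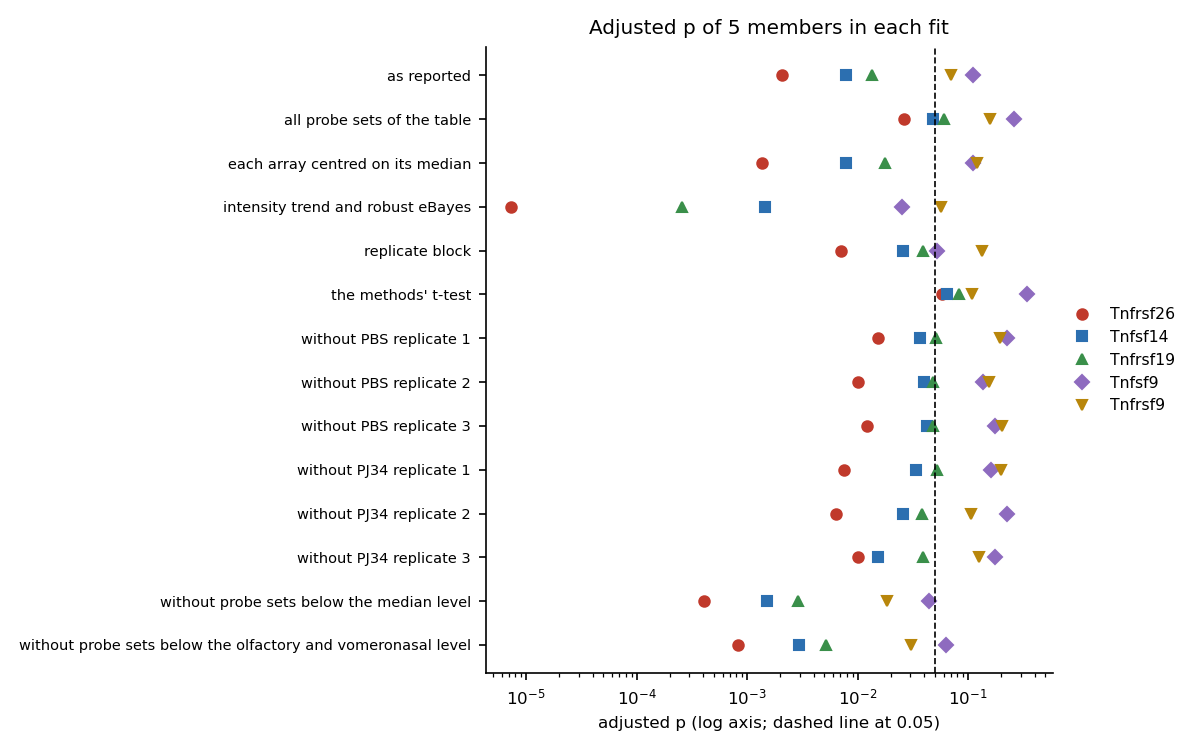
Adjusted p (horizontal log axis, dashed line at 0.05) of Tnfrsf26, Tnfsf14, Tnfrsf19, Tnfsf9 and Tnfrsf9 in the fit reported and in 13 others (vertical axis), limma in all but the test of the study's methods. Tnfrsf26 and Tnfsf14 lie left of the line in every fit but that one, and Tnfrsf19 lies near the line in the fits that left out 1 array.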

How the data were processed

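Per the labels, RNA of 3 PJ34 and 3 PBS samples was hybridised to Affymetrix Mouse Gene arrays. According to the submitters' processing notes the authors used RMA in Affymetrix Expression Console 1.3.1, and the deposited values are log2 expression values, already background corrected and quantile normalized, so that a change shared by all genes would not be seen. The table held 35556 probe sets, of which 21789 were assigned to 1 gene, 1621 to several and 12146 to none. Array medians lay between 4.41 and 4.46, and correlations between arrays were 0.992 to 0.995. The number of arrays limits the precision.

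From these values, PJ34 was compared with PBS in limma 3.58.1 (R 4.3.3; lmFit and eBayes) over 23412 probe sets, those with a gene and 2 named by the study, with Benjamini-Hochberg adjustment over all of them and calls at an adjusted p under 0.05. The fit was tested on simulated data. For a gene with several probe sets that of the highest mean was used. Members, lists, tests and named genes were chosen with earlier results of these data known. Named were members that passed, the 5 highest and 5 lowest by log2 fold change, those with an unadjusted p under 0.05, the brightest of each role, and, in other lists, genes with an unadjusted p under 0.05. The myeloid, T and NK, and B cell markers were 12, 11 and 7 measured genes. Alternatives were all probe sets, centring, an intensity trend with robust eBayes, a replicate block, the methods' two-tailed t-test, filters on dim probe sets and leaving out each array. Promoters were RefSeq's on GRCm38.p6, with 31 of 40 members matched. Tnfrsf26 was not among them.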

Additional observations from a re-analysis of the deposited data

How the results depend on the processing

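Against 403 probe sets higher and 315 lower, there were 112 and 76 with all probe sets of the table tested, with each array centred on its median 333 and 366, so that more were lower than higher, with an intensity trend and robust eBayes 1009 and 921, with a replicate block 222 and 143, with the methods' t-test 78 and 65, without probe sets below the median level 892 and 777, and without those below the olfactory and vomeronasal level 705 and 581. With 1 array left out, the number higher ran from 148 to 282 and the number lower from 83 to 321. The median filter kept 12698 probe sets and the olfactory and vomeronasal filter 15468, while the whole table held 35556. The cause of these shifts was not tested.

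Ligands higher were 2 with the trend, 0 in the t-test and 1 in each fit that left out 1 array. Under the median filter 3 of the 7 ligands kept were higher, beside 892 of all 12698 probe sets kept. Receptors higher were 1 with all probe sets, 0 in the t-test, 4 of the 16 kept by the median filter, and 1 to 2 with 1 array left out. In the t-test 10 members were higher and 0 lower at an unadjusted p under 0.05, beside 1956 and 1778 of all 23412 probe sets tested. The ligand median, 0.12, was 0.08 without PBS replicate 2 and 0.06 without PJ34 replicate 1. It was 0.20 under both filters on dim probe sets, over the 7 and 9 ligands kept. The receptor median, 0.04, ran from -0.00 (without PJ34 replicate 3) to 0.06 (without PBS replicate 1) and was 0.02 with centring. The 5 lowest members, none called, each moved by over 1.5 times with some array left out, Tnfrsf13b from -0.11 to -0.02 without PJ34 replicate 2. Members whose groups did not overlap numbered 12 to 15 higher and 1 to 4 lower with 1 array left out, an alternative chosen after seeing the data. Groups separate more easily with 1 array fewer, and the share over all probe sets was not computed for these fits. The counts therefore do not show a firmer separation of the members.

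Signal transducers higher were 0 with all probe sets, 3 with the trend, 0 in the t-test and 0 to 1 with 1 array left out. Those lower were 2 with the trend and 0 to 1 with 1 array left out. Of the 30 kept by the median filter 3 were higher and 2 lower, and of the 31 kept by the olfactory filter 2 and 1. Proteases higher were 0 with all probe sets, with centring, with the block, in the t-test and with any array left out, and lower were 0 with all probe sets and the block and 0 to 1. RNA-binding proteins higher were 1, Zfp36, with all probe sets and with the block, and 1 to 3 with 1 array left out. In the t-test 1 was higher, Rc3h1, and Zfp36 did not pass.

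Over 35 named genes, 448 recomputed values held 381 with the same call and direction, 47 that no longer passed, 20 that newly passed and 0 reversed. Deviations of arrays with the same replicate number correlated at -0.01, 0.13 and -0.01, so the numbers were not taken to pair the arrays, and the replicate block changed no call of a member.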
